A study of Mus musculus with 2 samples.

Results

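The core of the TGF-beta pathway was described by 10 genes: the ligands Tgfb1, Tgfb2 and Tgfb3, the receptors Tgfbr1, Tgfbr2 and Tgfbr3, and the signal transducers Smad2, Smad3, Smad4 and Smad7. They were chosen by name, as members of a pathway known to drive metastasis of 4T1 cells, and not by a rule on their values. The inhibitor Smad7 is among them. Earlier results of these data were known when they were chosen. All 10 were among the 21911 genes listed, and all 10 were among the 10267 genes with a mean of at least 1 FPKM over both libraries. FPKM counts the fragments of a gene relative to its transcript length and to the size of the library, so that levels can be compared between genes. The 4T1 line comes from a mammary tumour of a BALB/c mouse. Its cells received PBS or potassium oxalate for 48 h, and 1 library of polyadenylated RNA was sequenced for each. The treatment label of the oxalate sample and the methods of the paper give 20 µM, and the treatment protocol gives 20 mM. No replicate exists, so that no difference between PBS and oxalate could be tested and every difference below compares 2 libraries, not 2 conditions.

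TGF-beta is secreted in a latent form, bound to its own propeptide. Once freed, the dimer is held by the type II receptor TGFBR2, which then recruits and phosphorylates the type I receptor TGFBR1. TGFBR3, also called betaglycan, presents the ligand to TGFBR2 and is needed most for TGF-beta 2. The active type I receptor phosphorylates SMAD2 and SMAD3, which join SMAD4 and enter the nucleus, while SMAD7 is a target of the pathway that blocks the type I receptor in turn. In breast cancer cells the pathway is known for a double role, holding back growth early and promoting invasion and spread later.

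Sequencing depth, read from the steps of low FPKM values, was about 56800000 reads for PBS and 36500000 for oxalate. Epithelial markers (Epcam, Cdh1, Krt8, Krt18 and Krt19) were all present, with a summed FPKM of 1353 in PBS and 1418 in oxalate. The summed FPKM of 5 fibroblast markers was 2.21 and 2.29, that of 4 endothelial markers 0.08 and 0.11, and that of 5 leukocyte markers 12.7 and 12.3. The leukocyte sum came from Cd68 and Csf1r, whereas Ptprc, Itgam and Cd3e were listed at 0 in both. In bulk RNA of this kind, fewer cells that express a gene and less RNA per cell cannot be told apart.

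Tgfb1 was the dominant ligand in both libraries, Tgfbr2 the dominant receptor and Smad3 the most abundant SMAD. In the PBS library the order of levels was Tgfbr2, Smad3, Tgfb1, Smad4, Smad2, Smad7, Tgfbr3, Tgfbr1, Tgfb3 and Tgfb2. In the oxalate library only Smad2 and Smad7 changed places. The levels ran from 1.59 to 61.48 FPKM with PBS and from 1.43 to 65.61 FPKM with oxalate. With 1 library each, no spread over samples is available to say which neighbours in that order differ.

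**Figure D1:**
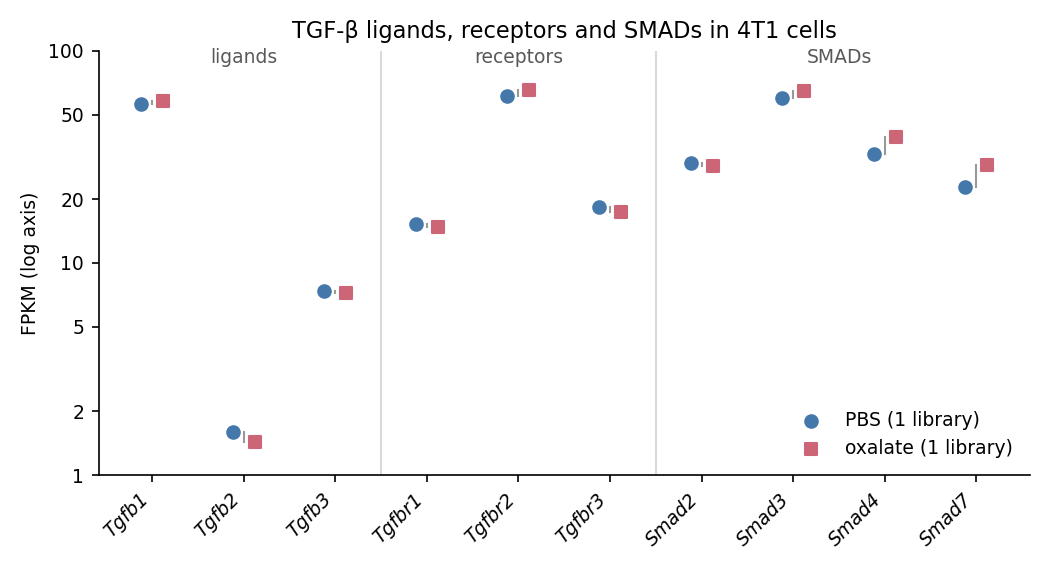
FPKM (log axis) of the 10 genes in the PBS library (circles) and the oxalate library (squares), 1 library each, with no error bars because there are no replicates. Tgfb1, Tgfbr2 and Smad3 stand above the other members of their families in both libraries, and Tgfb2 is lowest at 1.59 and 1.43 FPKM.

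None of the 10 genes was 2-fold or 1.5-fold higher or lower with oxalate, on the scale log2((oxalate + 1)/(PBS + 1)), which understates differences of low genes. Over all genes tested, 0.292% were at least 2-fold higher and 0.36% at least 2-fold lower, and 0.935% and 1.05% were past 1.5-fold. A single member, Smad7, was past 1.2-fold, where 4.75% of all genes were higher and 5.19% lower. Of the members 5 were higher and 5 lower with oxalate, and of all 10267 genes tested 5198 were higher and 5033 lower. The median log2 fold change of the members was 0.0086 against 0.0031 over all genes tested. The members had no shared direction, and the only differences over 0.2 in size were those of Smad4 and Smad7.

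To give the counting error, reads were estimated from FPKM, transcript length and depth, and a 95% Clopper-Pearson interval, which is exact for counts, was computed for each log2 ratio. It covers counting error only. The interval lay above 0 for 4 members (Tgfbr2, Smad3, Smad4 and Smad7), below 0 for 0 members, and spanned 0 for the other 6. These calls depend on the transcript length assumed, and with the longest coding transcript the intervals of Smad2 (-0.079 to -0.00083) and Tgfbr3 (-0.13 to -0.016) lay below 0 as well. Over all genes tested the interval lay above 0 for 24.9% and below 0 for 23.8% at the mean transcript length. With the longest coding transcript it lay above 0 for 2888 and below 0 for 2721 of the 10267 genes. The 2 libraries thus differed beyond counting error in nearly every second gene, and an interval that leaves out 0 is common in these data.

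**Figure D2:**
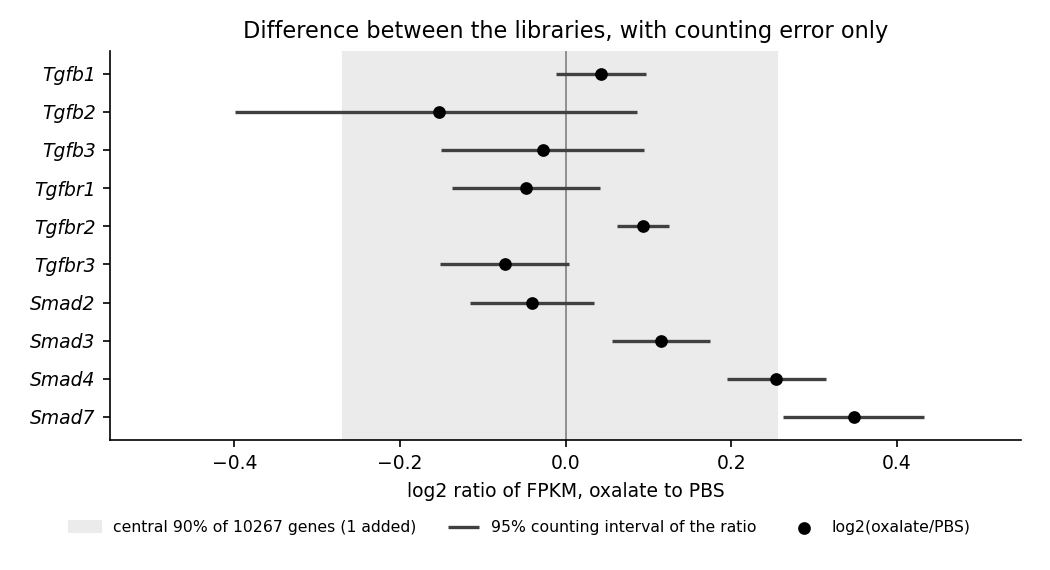
Log2 ratio of FPKM (oxalate to PBS) of the 10 genes, with the 95% counting interval as a line. The grey band holds the central 90% of all 10267 genes, from -0.27 to 0.26 on the scale with 1 FPKM added. Smad7 lies beyond the band at 0.35 and Smad4 near its edge at 0.25.

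Of the ligands, Tgfb1 (ENSMUSG00000002603, chromosome 7, 25687002 to 25705077, plus strand), the form best known from tumours and immune regulation, had 56.07 FPKM with PBS and 57.74 FPKM with oxalate. The log2 fold change was 0.042, and the counting interval of the ratio spanned 0, from -0.012 to 0.096, which means that no difference could be detected with this number of reads. About 6924 and 4583 reads stood behind these values. Tgfb1 was higher than 91.4% of the genes listed for PBS and 91.7% of those listed for oxalate.

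Tgfb3 (ENSMUSG00000021253, chromosome 12, 86056745 to 86079041, minus strand), a ligand best known from palate development, had 7.34 and 7.2 FPKM. Its log2 fold change was -0.024, with a counting interval from -0.15 to 0.094. Tgfb2 (ENSMUSG00000039239, chromosome 1, 186622792 to 186705989, minus strand), the ligand that depends most on betaglycan, had 1.59 and 1.43 FPKM. Its log2 fold change was -0.092. With about 388 and 224 reads its interval was the widest of the 10 genes, from -0.40 to 0.086 on the scale of the ratio.

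Tgfb1 held 86.3% of the summed ligand FPKM with PBS and 87.0% with oxalate. Tgfb3 held 11.3% and 10.8%, and Tgfb2 held 2.45% and 2.15%. Per length, Tgfb1 was thus 7.64 times as high as Tgfb3 with PBS and 8.02 times with oxalate, and 35.3 and 40.4 times as high as Tgfb2. The counting intervals of both changes in ratio spanned 0, from -0.062 to 0.20 for Tgfb3 and from -0.048 to 0.44 for Tgfb2 on the log2 scale.

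The sequences upstream of the highest and the lowest ligand are shown because these genes lie so far apart in level. They are the 250 bases before the annotated start, from RefSeq on GRCm38.p6, read 5′ to 3′ on the strand of the gene, at chr7:25686752-25687001 (plus strand) for Tgfb1 and chr1:186705990-186706239 (minus strand) for Tgfb2. Capitals mark matches, on either strand, to the GC box GGGCGG, the TATA box TATAAA or the SMAD site CAGACA.
Tgfb1: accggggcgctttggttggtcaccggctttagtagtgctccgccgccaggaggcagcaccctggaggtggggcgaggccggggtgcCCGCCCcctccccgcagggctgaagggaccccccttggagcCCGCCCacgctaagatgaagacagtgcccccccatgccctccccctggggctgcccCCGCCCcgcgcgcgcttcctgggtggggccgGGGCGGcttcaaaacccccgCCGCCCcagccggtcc
Tgfb2: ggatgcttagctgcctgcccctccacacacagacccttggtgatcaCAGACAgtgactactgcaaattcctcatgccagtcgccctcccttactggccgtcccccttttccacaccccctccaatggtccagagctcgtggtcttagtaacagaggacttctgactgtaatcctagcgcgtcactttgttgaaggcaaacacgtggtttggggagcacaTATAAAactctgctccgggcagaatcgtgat

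The Tgfb1 stretch held 5 GC boxes and no TATA box, with 75.2% G and C and 21 CpG. The Tgfb2 stretch held no GC box, 1 TATA box that began 31 bases before the start, and 1 SMAD site, with 53.6% G and C and 8 CpG. Of 32851 RefSeq promoters of this length, 32.7% held a GC box, 12.4% a TATA box and 17.1% a SMAD site, and the median content of G and C was 52.4%. The other motifs searched were the cAMP response element TGACGTCA (in 1.55% of promoters), the AP-1 site TGANTCA (6.75%) and the SMAD palindrome GTCTAGAC (0.167%), and neither stretch held one. Only exact letters were searched, and no 2 of these motifs matched the same bases in these 2 stretches. Promoters were listed for 5 of the 10 genes, the others being Tgfbr1, Tgfbr2 and Smad3. The stretches of Smad3 and of the first Tgfbr1 start held 2 GC boxes each and those of Tgfbr2 and the second Tgfbr1 start none. These matches describe the sequence and were not tested for a part in the levels.

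Of the receptors, Tgfbr2 (ENSMUSG00000032440, chromosome 9, 116084293 to 116175360, minus strand), the type II kinase that binds the ligand first, had 61.48 FPKM with PBS and 65.61 FPKM with oxalate. It was the highest of all 10 genes in both libraries. The log2 fold change was 0.092, and the counting interval of the ratio ran from 0.062 to 0.13 on about 20191 and 13849 reads. This log2 fold change lay just above the upper quartile of all genes tested, 0.088, and inside their central 90%, which ran from -0.27 to 0.26.

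Tgfbr1 (ENSMUSG00000007613, chromosome 4, 47353222 to 47414931, plus strand), the type I kinase that phosphorylates SMAD2 and SMAD3, had 15.33 and 14.83 FPKM, a log2 fold change of -0.045. Tgfbr3 (ENSMUSG00000029287, chromosome 5, 107106570 to 107289629, minus strand), the betaglycan co-receptor without a kinase, had 18.27 and 17.36 FPKM, a log2 fold change of -0.070. The counting intervals ran from -0.14 to 0.041 for Tgfbr1 and from -0.15 to 0.0041 for Tgfbr3, and both spanned 0 at the mean transcript length.

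Tgfbr2 made up 64.7% of the summed receptor FPKM with PBS and 67.1% with oxalate, Tgfbr3 19.2% and 17.8%, and Tgfbr1 16.1% and 15.2%. The type II receptor mRNA was 4.01 times as high as that of the type I receptor with PBS and 4.42 times with oxalate. That change in the ratio was 0.14 on the log2 scale, with a counting interval from 0.048 to 0.24. Tgfbr3 stood at 1.19 and 1.17 times the level of Tgfbr1, and the interval of that change spanned 0, from -0.14 to 0.092.

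**Figure D3:**
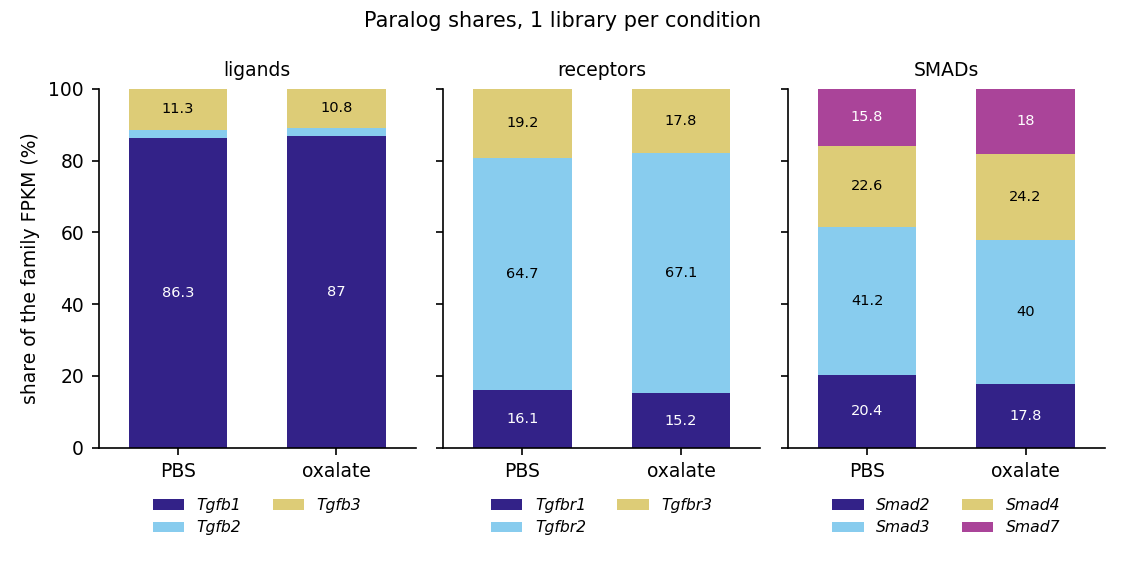
Share of each gene in the summed FPKM of its family, in percent, for ligands, receptors and SMADs, with 1 bar per library and no error bars because there are no replicates. Tgfb1 (86.3% and 87.0%) and Tgfbr2 (64.7% and 67.1%) take most of their families, while the SMADs are more even, with Smad3 at 41.2% and 40.0%.

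Of the SMADs, Smad3 (ENSMUSG00000032402, chromosome 9, 63646767 to 63757994, minus strand), a receptor-activated SMAD that binds DNA directly, had 59.65 FPKM with PBS and 64.6 FPKM with oxalate. Smad2 (ENSMUSG00000024563, chromosome 18, 76241580 to 76310963, plus strand), the other receptor-activated SMAD of this branch, had 29.47 and 28.66 FPKM. The 2 paralogs leaned in opposite directions, with log2 fold changes of 0.11 for Smad3 and -0.039 for Smad2. The counting interval of the ratio ran from 0.056 to 0.17 for Smad3 and, at the mean transcript length, from -0.12 to 0.035 for Smad2. Smad3 mRNA was 2.02 times as high as Smad2 mRNA with PBS and 2.25 times with oxalate, a change of 0.16 on the log2 scale with a counting interval from 0.060 to 0.25.

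Smad4 (ENSMUSG00000024515, chromosome 18, 73639009 to 73703780, minus strand), the partner that TGF-beta and BMP branches share, had 32.76 FPKM with PBS and 39.07 FPKM with oxalate. Its log2 fold change was 0.25, with a counting interval of the ratio from 0.19 to 0.31 on about 5224 and 4005 reads. Of all genes tested, 5.39% were higher by at least as much. The ratio of Smad4 to Smad2 was 1.11 with PBS and 1.36 with oxalate, and that of Smad3 to Smad4 was 1.82 and 1.65. The counting intervals of these changes ran from 0.20 to 0.39 and from -0.22 to -0.056 on the log2 scale. How often such an interval leaves out 0 over all pairs of genes was not computed.

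Smad7 (ENSMUSG00000025880, chromosome 18, 75367529 to 75395935, plus strand), the inhibitory SMAD that the pathway itself induces, had 22.8 FPKM with PBS and 29.01 FPKM with oxalate. This was the largest relative difference among the 10 genes. Its log2 fold change was 0.33, with a counting interval of the ratio from 0.26 to 0.43 on about 2499 and 2044 reads. Of all genes tested, 2.97% were higher by at least as much, and of the 3090 genes with a mean of 20 to 70 FPKM 1.84% were. That range was set by hand and also holds Smad4, for which no such share was computed. Smad7 mRNA stood at 0.774 times the level of Smad2 with PBS and at 1.01 times with oxalate, and at 0.382 and 0.449 times the level of Smad3. The counting intervals of these changes ran from 0.28 to 0.50 and from 0.13 to 0.34 on the log2 scale.

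Within the SMADs, the share of Smad7 was 15.8% with PBS and 18.0% with oxalate, that of Smad4 22.6% and 24.2%, that of Smad3 41.2% and 40.0%, and that of Smad2 20.4% and 17.8%. The summed SMAD level was 144.7 FPKM with PBS and 161.3 FPKM with oxalate. The summed ligand level was 65.0 and 66.37 FPKM and the summed receptor level 95.08 and 97.8 FPKM. Most of the difference in these summed levels was therefore in the SMADs.

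The paralogs could be told apart by sequence. In the coding transcripts of GENCODE M21 (GRCm38), the longest stretch that 2 members of 1 family shared was 23 bases, between Smad2 and Smad3, and the ligands shared at most 15. None of the stretches of 50 bases in Tgfb1, Smad2, Smad3, Smad4 or Smad7 occurred in a transcript of another gene. For Tgfb3 8.79% of them did and for Tgfbr3 3.99%, in overlapping genes, and for Tgfb2 0.596%, Tgfbr2 0.769% and Tgfbr1 0.0156%. The stretches of Tgfb3 occurred in Gm48008 and Gm37804, which overlap it on the other strand. The libraries are not stated to keep strand, so that the level of Tgfb3 is less certain. Ttll5 also overlaps Tgfb3 on the other strand, but none of these stretches occurred in a Ttll5 transcript. Tgfb1 and Tgfb3 have 1 coding transcript each. The others have 2 to 7, those of Smad2 from 614 to 8089 bases long, so that their levels per length depend on the length the authors used.

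The genes around the core were grouped in 6 lists by role, made with earlier results of these data known. Beside the counts below, 5198 of all 10267 genes tested were higher with oxalate and 5033 lower. Of 18 regulators of SMADs and receptors, 17 were tested, of which 11 were higher and 6 lower with oxalate and the median log2 fold change was 0.076. The exception in size was Ski (ENSMUSG00000029050, chromosome 4, 155154075 to 155222592, minus strand), a corepressor that binds SMAD complexes and holds their targets silent. Ski had 9.21 FPKM with PBS and 25.47 FPKM with oxalate, or 1.37 as a log2 fold change, on about 2832 and 5034 reads. Its counting interval ran from 1.40 to 1.53 on the scale of the ratio. Among the tested genes of the 6 lists it was the only one past 2-fold on the scale with 1 FPKM added, a size that 0.292% of all genes reached upward. Its 2 coding transcripts are 5309 and 5522 bases long.

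The other regulators lay within 1.2-fold. Skil, the paralog of Ski and itself a target of the pathway, had 6.86 and 8.0 FPKM, a log2 fold change of 0.20. Pmepa1, an inhibitor induced by TGF-beta, had 68.32 and 66.72 FPKM. Smurf1, a ubiquitin ligase for SMADs and receptors, had 59.73 and 63.04 FPKM, and Ep300, a histone acetyltransferase that SMADs recruit, had 55.42 and 61.72 FPKM. Bambi, a decoy receptor, was listed at 0 in both libraries.

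Of 15 genes for latency and activation of the ligand 10 were tested, and 8 were higher and 2 lower with oxalate. Their median log2 fold change of 0.14 was the highest of the 6 lists, against 0.0031 over all genes, and none of the 10 tested genes was past 1.2-fold. Without the filter on low values the median of all 15 was 0.055. Mmp2, a matrix protease of this list, did not reach the filter, with 0.59 and 0.12 FPKM in PBS and oxalate and a log2 fold change of -0.51. Thbs1, a matrix protein that frees the latent ligand, had 303.75 FPKM with PBS and 346.29 FPKM with oxalate, and its log2 fold change was 0.19. Itgb1, an integrin subunit, had 376.26 and 362.72 FPKM, and Mmp9, a matrix protease, had 147.47 and 132.86 FPKM. The log2 fold changes of Ltbp1 to Ltbp4, whose proteins tether the latent ligand to the matrix, were between 0.048 and 0.15. The integrin subunits that free TGF-beta 1 and 3 in epithelia were unequal, with Itgb6 at 2.27 and 2.88 FPKM and Itgb8 listed at 0.

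Of 29 target genes of TGF-beta 23 were tested, with 9 higher, 14 lower and a median log2 fold change of -0.034. Smad7, itself a target, was not counted here. The only one past 1.2-fold was Cdkn1a, which encodes the cell cycle inhibitor p21, with 13.26 FPKM with PBS and 10.67 FPKM with oxalate. Its log2 fold change was -0.29. The most abundant were Ptgs2, which encodes cyclooxygenase 2, with 485.92 and 497.06 FPKM, Fn1, the matrix protein fibronectin, with 423.13 and 481.72 FPKM, and Ccn1, a matrix-associated growth regulator, with 281.39 and 282.98 FPKM.

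Of 17 genes of the BMP branch 8 were tested, and 6 of these were higher and 2 lower at a median log2 fold change of 0.040. Acvr1, a type I receptor for BMPs and activins, was past 1.2-fold at 9.81 and 12.61 FPKM, a log2 fold change of 0.33. Bmpr1a had 33.28 and 31.36 FPKM, the co-receptor Eng 23.52 and 25.81 FPKM, and Smad5, a SMAD of this branch, 15.24 and 15.13 FPKM. Smad6, the inhibitory SMAD most like Smad7, had 2.73 and 3.19 FPKM. The interval of its ratio spanned 0 at the mean transcript length, from -0.052 to 0.51. With the longest coding transcript it lay above 0, from 0.018 to 0.43. Bmp2, Bmp4 and the receptors Bmpr1b and Acvrl1 were listed at 0.

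Of 13 genes of the activin, nodal and GDF branch 7 were tested, with 4 higher, 3 lower and a median of 0.017. Inhba, which encodes the subunit of activin A, had 14.9 and 13.46 FPKM, its trap Fst 8.42 and 7.45 FPKM, and the ligand Gdf11 8.54 and 7.84 FPKM. Of 8 genes for signalling beside SMADs, 3 were higher and 5 lower at a median of -0.063. The 2 past 1.2-fold were both lower with oxalate. Map3k7, which encodes the kinase TAK1, had 21.01 and 15.22 FPKM, a log2 fold change of -0.44, and Shc1, an adaptor that links the receptor to RAS, had 50.12 and 38.87 FPKM, a log2 fold change of -0.36. Rhoa had 321.74 and 310.45 FPKM and Tab2, a partner of TAK1, had 39.68 and 44.44 FPKM.

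**Figure D4:**
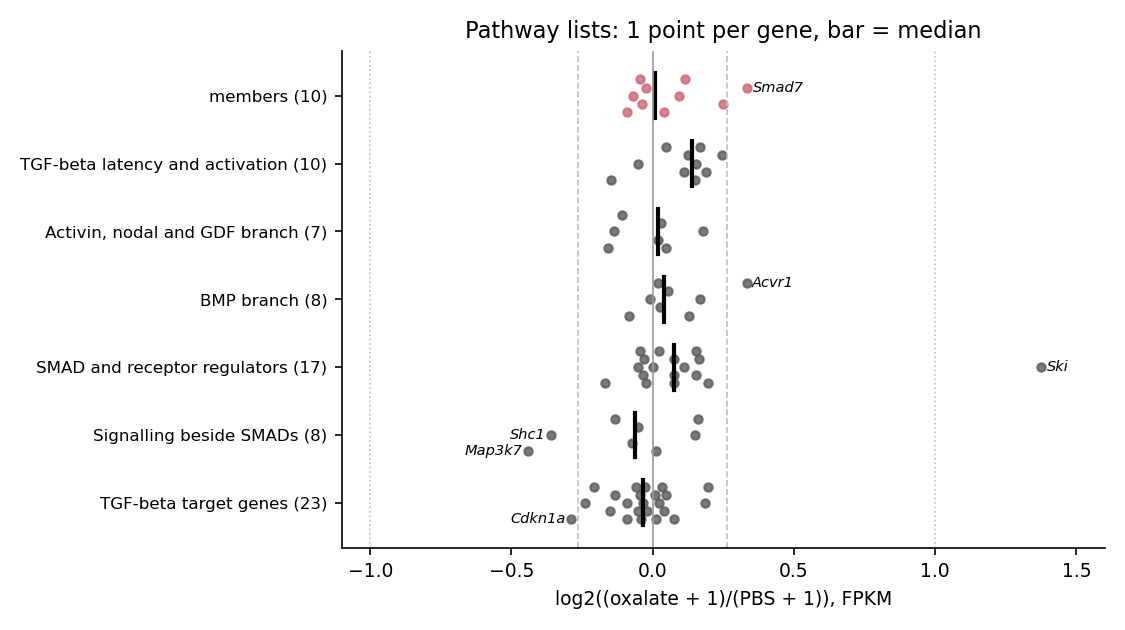
Log2 fold change, log2((oxalate + 1)/(PBS + 1)), of the 10 genes and of 6 lists of related genes, with 1 point per gene, a bar at the median and the number of genes tested in brackets. Dashed lines mark 1.2-fold and dotted lines 2-fold. Ski stands alone at 1.37, and the medians lie between -0.063 and 0.14.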

How the data were processed

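RNA of 4T1 cells was measured in 2 libraries, 1 with PBS and 1 with oxalate. After oligo(dT) enrichment and random priming, the authors deposited 1 FPKM value per gene and library, with 2 decimals. The submitters' processing notes name Bowtie2 2.2.8 and TopHat2 2.1.1. The quantification tool, genome build, annotation and filters are not given in the sources used here.

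Symbols, coordinates and lengths came from GENCODE M21 (GRCm38), in which 21848 of 21911 identifiers were found. The fold change added a pseudocount of 1 FPKM and was computed for genes with a mean of at least 1 FPKM. The value of 1 read was fitted on low FPKM values of genes with 1 transcript (41 for PBS and 37 for oxalate), at 0.0176 and 0.0274 FPKM in 1 kb. Reads used the mean length of the coding transcripts and are estimates. Intervals of a single ratio are exact (Clopper-Pearson, 95%), and those of a change in the ratio of 2 genes use 1.96 standard errors of estimated counts. The fit of the value of 1 read, the 2-fold calls and the intervals of a single ratio were first tested on simulated data. That simulation took the transcript lengths as known, and its intervals used the true value of 1 read. The other steps were not tested in it. The members and lists were chosen with earlier results of these data known. Named list genes were the 3 highest of each list and those past 1.2-fold, and others were named after their values were seen. A gene of the lists is not reported here. Ctgf and Cyr61 of the lists are Ccn2 and Ccn1. Alternatives were other pseudocounts, scalings, filters, folds and lengths. The work used matplotlib 3.10.9, scipy 1.17.1, pandas 2.3.3 and numpy 2.4.6 under Python 3.11.15.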

Additional observations from a re-analysis of the deposited data

How the results depend on the processing

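No paired analysis was possible because PBS and oxalate have 1 library each, and for the same reason none could be left out. The 40 values of the members under other pseudocounts (0.1 and 0.001) and scalings all stayed within the counting interval and kept their sign, with Smad7 between 0.33 and 0.36 and Smad4 between 0.24 and 0.27. The members' median of 0.0086 ran from 0.0057 (rescaled) to 0.042 (mean of at least 5 FPKM). The number of members past the fold became 1 (Smad7, higher) at 1.2-fold and stayed at 0 under the other alternatives. The 37 genes at least 2-fold lower became 56 and 58 with pseudocounts of 0.1 and 0.001. At 1.5-fold 96 genes were higher and 108 lower, and at 1.2-fold 488 and 533. As a share of estimated reads, which is not per length, Tgfb1 held 79.4% (PBS) and 80.5% (oxalate) of the ligands, Tgfbr2 76.6% and 78.5% of the receptors and Smad3 33.2% and 32.1% of the SMADs. Smad4 then held 32.4% with oxalate, above Smad3. With the longest coding transcript as length, 10 of 20 read estimates shifted by over 1.5 times, and the intervals of Smad2 and Tgfbr3 also lay below 0. At that length the interval lay above 0 for 2888 and below 0 for 2721 of all 10267 genes tested. The median of the latency list, 0.14, was 0.055 with no filter. Of 36 list medians 1 shifted by at least 0.1, that of the activin list (-0.12 at a mean of at least 5 FPKM), and 3 changed sign or became 0, all of the activin and BMP lists. The cause was not tested. Depth limits Tgfb2 most, and transcript length, which the deposited values do not give, limits the levels.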

Other observations

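Smad4, Smad7 and Smad2 lie within 2.67 Mb of chromosome 18, from 73639009 to 76310963. Of the 12 other tested genes in this stretch, 6 were higher with oxalate, with a median of -0.0051 and a range from -0.42 to 0.18, and none of them was higher by as much as Smad4 or Smad7. Mmp2, the matrix protease of the latency list that was below the filter, was named after its values were seen. Its 0.59 FPKM with PBS and 0.12 FPKM with oxalate rested on about 63 and 8 reads, with a log2 ratio of -2.30 and a counting interval from -3.61 to -1.27. Hmga2, a chromatin protein that TGF-beta induces, was also named afterwards, with 95.82 FPKM with PBS, 80.96 FPKM with oxalate and a log2 fold change of -0.24. No replicate stands behind these values.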
